A study of Bos taurus with 3 samples.

Results

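The miRNAs described here are those named miR-193a, miR-193b and miR-365, taken by name from a table of small RNA read counts of large dense-core vesicles. They comprised 6 of the 793 mature miRNAs in that table, in 7 of its 919 rows, on 5 hairpins (mir-193a, mir-193a-2, mir-193b, mir-365-1 and mir-365-2). Chromaffin cells, the endocrine cells of the adrenal gland medulla, keep catecholamines and peptides in these vesicles until secretion. The vesicles were purified from chromaffin cells of cows from a slaughterhouse, and the labels give no treatment, genotype, age or number of animals. The labels call 2 of the 3 libraries technical replicates and the other a biological replicate, without saying which step was repeated. Means ± SD are therefore over n = 2 preparations, the averaged technical pair (technical replicates 1 and 2, always given in that order) and the biological replicate, below called the biological library. No whole-cell library was analysed here, so the values describe the RNA of vesicle preparations and not enrichment over the cell. These miRNAs were chosen by name, but selected on the levels and arm ratios seen in these same libraries, so levels and arm ratios are given as descriptions. The difference between preparations, which the choice by name does not use, was tested in a fit over all miRNAs, and those p-values are not independent evidence, since the results were known when the miRNAs were selected.

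A miRNA hairpin is cut into a duplex of a 5p and a 3p arm, and usually 1 arm is loaded into Argonaute and accumulates while the other is degraded. In mammals the miR-193 and miR-365 hairpins lie side by side in the genome, as a cluster of miR-193b with a miR-365 copy and a paralogous cluster of miR-193a with the other miR-365 copy. The 3p arms of miR-193a and miR-193b share a seed, the stretch that pairs with target mRNAs, and are known to repress growth genes such as CCND1, KIT and MCL1, while miR-193b and miR-365 have also been studied as regulators of brown fat differentiation. In the RefSeq gene list of the assembly ARS-UCD2.0, MIR193B and MIR365-1 were direct neighbours with 0 genes listed between them, both inside the span of LOC100849865. MIR365-2 and MIR193A were neighbours with 1 gene between them, MIR2333, whose miRNA miR-2333 had no count in the 3 libraries. MIR193A-2 lay on a chromosome that holds none of the others, within the span of ZNF623. The submitters' processing notes name another assembly, UMD3.1, so no coordinates are given.

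Counting each mature miRNA once, the technical pair held 5546771 and 6251664 counts and the biological library 6708654. A count of 0 allows up to 3 counts, which is 0.541 and 0.480 CPM (counts scaled to a common library total) in the technical pair and 0.447 CPM in the biological library. The 6 miRNAs together took 390 and 438 CPM in the technical pair, and 347 CPM in the biological library. As a share of all miRNA counts this was 0.0390% (exact Clopper-Pearson 95% interval 0.0373 to 0.0406%), 0.0438% (0.0421 to 0.0454%) and 0.0347% (0.0333 to 0.0361%). The labels mention no molecular identifiers, so these intervals and limits cover counting error only. The endocrine miRNAs miR-375 and miR-7 together stood at 428375 to 473000 CPM in every library. As endocrine markers they do not by themselves identify the labelled chromaffin cells.

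The cluster miRNAs were present at moderate to low levels, led by the 3p arm of miR-365 and the 5p arm of miR-193a. miR-365-3p (MIMAT0004341) stood at 200 and 233 CPM in the technical pair and at 156 CPM in the biological library, from 1109, 1456 and 1045 counts. Its mean of 186 ± 42.9 CPM (SD, n = 2) ranked 135 of 793 mature miRNAs. Both hairpins of miR-365 carried the same 3p counts in every library, so the table does not divide this arm between mir-365-1 next to miR-193b and mir-365-2 next to miR-193a. miR-193a-5p (MIMAT0003794) stood at 136 and 145 CPM in the technical pair and at 167 CPM in the biological library, a mean of 154 ± 18.9 CPM (SD, n = 2) and rank 143. miR-365-3p was the higher of these leading arms in both technical libraries and miR-193a-5p in the biological one, so their order did not hold across preparations.

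miR-193b (MIMAT0009253), whose name carries no arm, came next, at 42.7 and 48.9 CPM in the technical pair but 18.5 CPM in the biological library. Its mean was 32.2 ± 19.3 CPM (SD, n = 2), rank 220. miR-193a-3p (MIMAT0003795), the arm that shares its seed with the 3p arm of miR-193b, stood at 9.56 and 9.76 CPM in the technical pair and 4.62 CPM in the biological library, with a mean of 7.14 ± 3.56 CPM (SD, n = 2). The 3p arms of miR-193a and miR-193b resemble each other closely, and how their reads were divided is uncertain to that extent. In every library miR-193b lay above miR-193a-3p, by 4.47 and 5.02 times in the technical pair, and below the leading arms. The lowest miR-193b value, in the biological library, was above the highest value of miR-193a-3p. miR-365-5p (MIMAT0012539) was close to the limit of detection, with 7, 8 and 4 counts or 1.26, 1.28 and 0.596 CPM. The mature miRNA annotated on the separate hairpin mir-193a-2 (MIMAT0013837) had a single count, in technical replicate 1, and 0 in the others, so it was not measurable at this depth.

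**Figure D1:**
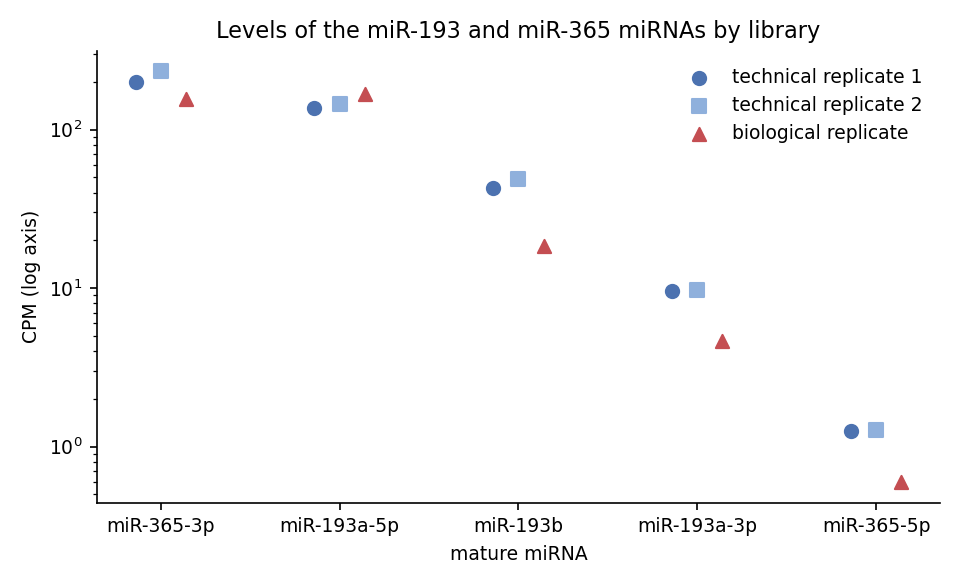
Levels of 5 of the mature miRNAs in CPM on a log axis, with 1 point for each library; the miRNA of mir-193a-2, at 1 count in all, is left out. The biological replicate lies below both technical replicates for miR-365-3p, miR-193b, miR-193a-3p and miR-365-5p, and above both for miR-193a-5p (167 against 136 and 145 CPM).

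The hairpins differed in the arm that accumulated: miR-193a reads came mostly from the 5p arm, and miR-365 reads almost only from the 3p arm. In the technical pair miR-193a had 754 and 905 counts from the 5p arm and 53 and 61 from the 3p arm, and in the biological library 1121 and 31. The 5p arm thus exceeded the 3p arm by 14.2 and 14.8 times in the technical pair and by 36.2 times in the biological library. The 5p arm of miR-365 had at most 8 counts where the 3p arm had at least 1045, and the 3p arm exceeded it by 158, 182.0 and 261 times. miR-193b could not be placed in this comparison, since the table lists a single mature miRNA for it. The 5p arm of miR-365 was listed on mir-365-1 only and its 3p arm on both hairpins, so the ratio belongs to the pair of hairpins and not to either of them.

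The 3p share of the miR-193a counts was 6.57% and 6.31% in the technical pair, with exact 95% intervals from 4.96 to 8.50% and from 4.86 to 8.04%. In the biological library it was 2.69%, with an interval from 1.84 to 3.80%. These intervals cover the counting of reads in each library and not the spread between preparations, of which there is 1 library on one side. For miR-365 the 5p arm made up 0.627% (0.253 to 1.29%), 0.546% (0.236 to 1.07%) and 0.381% (0.104 to 0.973%) of the counts. With 7, 8 and 4 counts of the 5p arm, the depth is too low to compare the arm use of miR-365 between libraries.

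As log2 of 3p over 5p counts (0.5 counts added to each arm), the ratio of miR-193a was -3.82 and -3.88 in the technical pair against -5.15 in the biological library, a mean of -4.50 ± 0.92 (SD, n = 2). That of miR-365 was 7.21 and 7.42 against 7.86, a mean of 7.59 ± 0.39 (SD, n = 2). Both arms were annotated for 78 miRNAs, and 42 of these had at least 10 counts over both arms in every library. Among the 42 the 3p arm was the higher one for 19 and the 5p arm for 23, and for 39 the same arm was higher in all 3 libraries. The median size of the ratio was 3.60 log2 units. Counted from the most 3p-biased, miR-365 ranked 4 and miR-193a ranked 35 of the 42, so each lay toward its own end of the range, with more extreme miRNAs beyond it on either side.

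**Figure D2:**
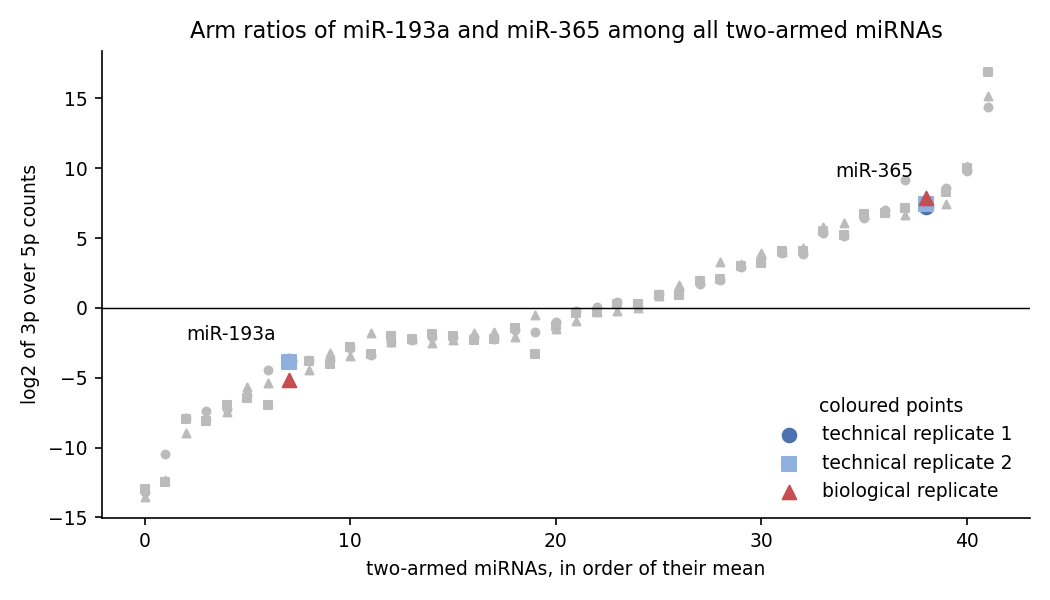
The log2 ratio of 3p over 5p counts for the 42 miRNAs with both arms annotated and at least 10 counts over both arms in every library, in order of their mean, with 1 point for each library. miR-365 (7.21 to 7.86) and miR-193a (-5.15 to -3.82) stand in colour on opposite sides of 0, and the biological replicate of miR-193a lies apart from its technical pair.

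Between the preparations the levels of the miR-193a arms differed in opposite directions. In the biological replicate the abundant 5p arm was higher, and the scarce 3p arm and miR-193b were lower. How reads were divided between that 3p arm and miR-193b is uncertain, and the 3p difference carries this limit. The libraries were compared with edgeR's quasi-likelihood test over the 367 mature miRNAs that reached 10 counts in any library. Of the 6 miRNAs 4 passed that filter and all 4 passed the test (Benjamini-Hochberg adjusted p below 0.05), 1 higher and 3 lower in the biological replicate. Over all miRNAs tested, 37.9% passed, 17.7% higher and 20.2% lower. Scaling by library totals instead of TMM placed log2 fold changes lower (TMM minus library totals, median 0.18), and the calls over all miRNAs were then 24 higher and 86 lower, against 65 and 74. Only the technical pair gives the spread of this test, with 1 residual degree of freedom, and its p-values speak of these libraries, not of animals. The fit also borrows spread across all miRNAs tested, so no p-value rests on the spread of that miRNA alone. The miRNAs were chosen with results of these libraries known, and the count of 4 is therefore a description.

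miR-193b, with the technical pair at 42.7 and 48.9 CPM and the biological library at 18.5 CPM, differed most. It fell by 1.13 ± 0.18 (SE) on the log2 scale (edgeR, adjusted p = 1.9e-08), and 18 of the 367 miRNAs had a lower log2 fold change. miR-193b was also lower, with an adjusted p of at most 0.0053, in the 6 alternative fits that held it.

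miR-193a-3p fell by 0.88 ± 0.30 (SE) (edgeR, adjusted p = 0.011), from 53 and 61 counts to 31 in a larger library. In DESeq2 its log2 fold change was -0.89 and it did not pass (adjusted p = 0.32). miR-193a-5p rose by 0.43 ± 0.12 (SE) (edgeR, adjusted p = 0.0011), to 167 CPM from 136 and 145 CPM. With library totals its log2 fold change was 0.25 and with only miRNAs of at least 100 CPM fitted it was 0.28, and it passed in neither (edgeR, adjusted p = 0.13 and 0.080). The direction of both arms was the same in every alternative.

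miR-365-3p had the smallest difference of the 4. It fell by 0.29 ± 0.11 (SE) on the log2 scale (edgeR, adjusted p = 0.030), to 156 CPM from 200 and 233 CPM. The technical libraries themselves differed by 0.22 in log2(CPM + 1), beside a median of 0.11 over the 367 miRNAs. In edgeR it missed the threshold when scaled by DESeq2 size factors (adjusted p = 0.090) or with hairpin rows summed (0.072), and it also did in DESeq2 (0.17). miR-365-5p and the miRNA of mir-193a-2 were below the count filter. Without that filter neither passed (edgeR, adjusted p = 0.59 and 0.80).

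**Figure D3:**
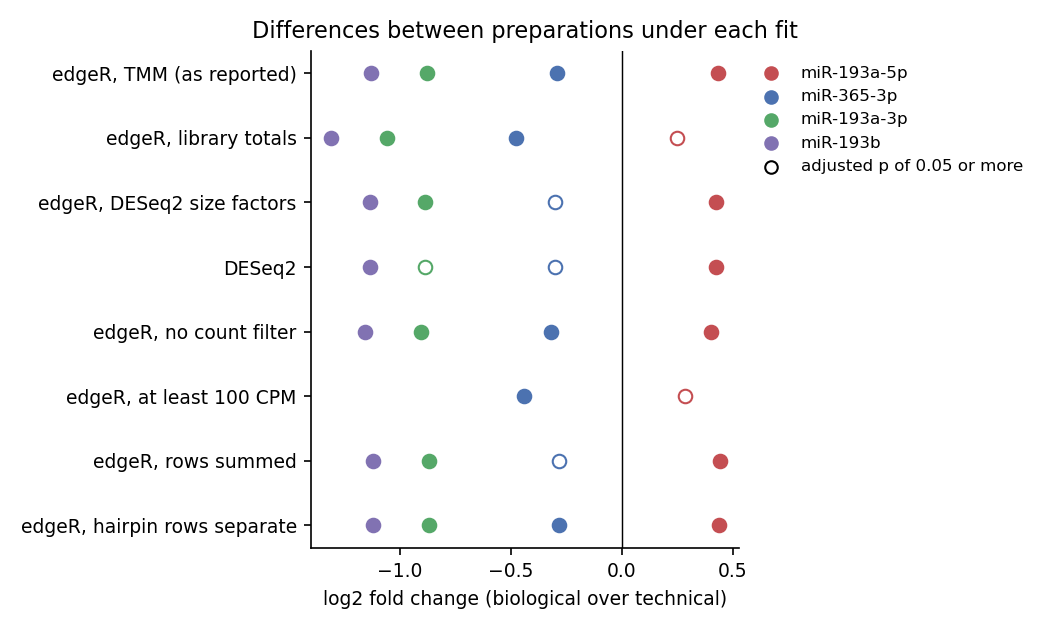
Log2 fold changes of the biological replicate over the technical pair for the 4 miRNAs tested, under the reported fit and 7 alternatives; open circles mark an adjusted p of 0.05 or more. miR-193a-5p lies above 0 and the others below 0 in every fit, and miR-193b (-1.31 to -1.12) is filled in each fit that holds it.

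A ratio of counts within a library does not depend on scaling. The log2 ratio of 3p over 5p for miR-193a was lower by 1.30 in the biological replicate than in the mean of the technical pair, whose libraries differed by 0.06. Over the 42 miRNAs with at least 10 counts over both arms in every library, the median size of this difference was 0.48 between preparations. Within the technical pair it was 0.21. Both arms reached the count filter of the test for 33 of the 42, so some of these ratios rest on few counts of 1 arm. miR-193a ranked 4 of the 42 by size, with the same uncertainty over how its 3p reads were divided from those of miR-193b. Above it came miR-2419, miR-2320 and miR-760, with differences of 2.03, 1.55 and -1.48. For miR-2419 and miR-760 the technical libraries also differed, by -1.57 and -2.02 log2 units, whereas those of miR-2320 differed by 0.08. The 3p arm of miR-2320 and the 5p arm of miR-760 were below the count filter, so these ratios rest on few counts of that arm. The 5p arm of miR-2320 did not pass (edgeR, adjusted p = 0.54). miR-365 ranked 18, with a difference of 0.55 that rests on 4 to 8 counts of its 5p arm.

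Both arms could be tested for 33 of these miRNAs. In 13 of them the arms had log2 fold changes of opposite sign, and in 6 both arms passed the edgeR test, in 4 of these in the same direction. The other two under this fit were miR-193a and the cattle-annotated miR-2483, in which the 5p arm fell by 0.46 and the 3p arm rose by 0.77 on the log2 scale (edgeR, adjusted p = 0.028 and 6.0e-10).

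**Figure D4:**
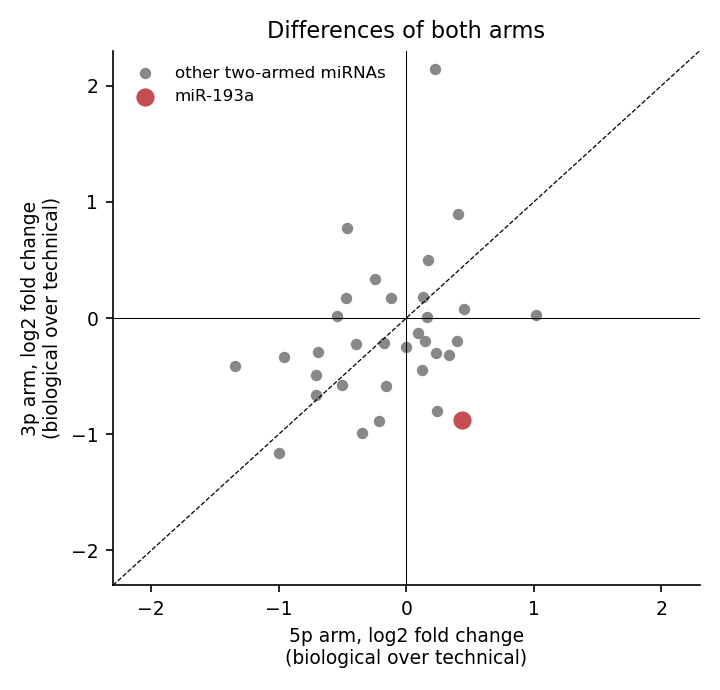
Log2 fold changes (biological over technical) of the 5p arm and the 3p arm for the 33 miRNAs with both arms tested, with a dashed line where both arms change equally. miR-193a (0.43 for 5p and -0.88 for 3p) lies in the lower right quadrant, away from that line.

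Relative to the undivided counts of miR-365-3p, miR-193b and miR-193a-5p did not keep a constant ratio between preparations. miR-365-3p exceeded miR-193b by 4.68 and 4.76 times in the technical pair and by 8.43 times in the biological library. The log2 ratio of miR-193b over miR-365-3p was thus lower by 0.84 in the biological replicate, with the technical pair at -2.23 and -2.25. miR-193a-5p stood at 0.680 and 0.622 times miR-365-3p in the technical pair and at 1.07 times in the biological replicate. By contrast the ratio of miR-193a-3p and miR-193b, from different clusters, had a smaller difference, but how reads were divided between them is uncertain. The log2 ratio of miR-193a-3p over miR-193b was -2.16 and -2.33 in the technical pair and higher by 0.24 in the biological library. The 3p counts of miR-365 are listed for both of its hairpins, which these ratios cannot separate. The ratio between neighbours within either cluster was therefore not measured.

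Patterns over the 3 libraries were also compared by the Euclidean distance between centred log2(CPM + 1) values, over 343 miRNAs with at least 10 counts in every library. This is a description over 3 libraries of which 2 are technical replicates. Nearest to miR-365-3p, the most abundant of the set, were miR-2285q, miR-30f and miR-487a, at distances of 0.037, 0.044 and 0.060. miR-30f stood at 112 and 135 CPM in the technical pair and at 87.1 CPM in the biological library. Within the set miR-193a-3p and miR-193b were closest to each other (0.30), and miR-193a-5p and miR-193b were farthest apart (1.24). miRNAs outside the set lay closer still, the nearest at 0.046 from miR-193a-3p and at 0.049 from miR-193b. miR-193a-5p was 0.96 from its own 3p arm.

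Other miRNAs known from brown and beige fat cell differentiation differed in both directions between the preparations, and most did not pass the test. Of 19 names listed, 18 were matched, with 21 mature miRNAs, all of which were tested. In the edgeR test 4 were higher, 2 lower and 15 did not pass, against the 17.7% higher and 20.2% lower over all miRNAs. The median log2 fold change of the list was 0.07, beside 0.01 over all 367. The most abundant were miR-27b, miR-26a, miR-27a-3p and miR-26b, with mean levels of 24741, 23543, 3530 and 2292 CPM, and none of these passed. On the log2 scale miR-455-5p fell by 0.71 and miR-30b-5p by 0.48, while miR-196a, miR-27a-5p, miR-93 and miR-32 rose by 1.19, 1.02, 0.49 and 0.30. miR-196a was scarce, with 16 and 17 counts in the technical pair against 38 in the biological library.

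Most marker miRNAs of vessel wall and connective tissue cells were lower in the same library as miR-193b and miR-193a-3p. The smooth muscle and fibroblast markers (miR-143, miR-145, miR-199a, miR-199b and miR-214) summed to 16827 and 18867 CPM in the technical pair and to 10249 CPM in the biological library. Most of each sum was miR-143: technical replicate 1 held 13712.5 CPM of it, technical replicate 2 15656.5 CPM and the biological library 8205.52 CPM. miR-145 was scarce, with 14, 12 and 11 counts (2.52, 1.92 and 1.64 CPM) in the same order. Of the 6 mature miRNAs in this list 5 fell and miR-145 (-0.24) did not pass, beside 20.2% lower over all miRNAs tested. Both arms of the endothelial miR-126 fell, from 1820 and 1888 CPM in sum to 1130 CPM. The leukocyte list summed to 78.4, 75.5 and 50.7 CPM, and of its 4 tested miRNAs 1 fell (miR-142-5p), a share close to the 20.2% over all miRNAs. Erythrocyte, striated muscle and epithelial markers summed to 837 to 1097, 129 to 152 and 24.2 to 32.2 CPM. Each sum was highest in the biological replicate through 1 member, which was also the only one of its list to pass: miR-486, miR-1 and miR-200c rose by 0.53, 0.41 and 0.52 on the log2 scale (17.7% of all miRNAs were higher). Other members of these lists differed in both directions. miR-451 was lower, at 23.6 and 20.2 CPM in the technical pair and 16.8 CPM in the biological library. So was miR-141, at 2.34 and 1.60 against 1.49 CPM. The log2 fold changes of miR-200b and miR-133a were 0.30 and 0.11, and that of miR-133b was -0.32. Below the count filter, miR-206 and miR-200a had their most counts (6 and 3) in the biological library, and miR-144 its fewest (4). The hepatocyte miRNA miR-122 had at most 6 counts. Of the marker miRNAs, miR-206 was at 0 in technical replicate 1 and miR-200a in technical replicate 2. The libraries came from purified vesicles and not from whole cells, so these marker values do not measure cell numbers. The part of these cells in the differences of miR-193b and miR-193a was not tested, and fewer cells of a type and less RNA per cell cannot be told apart in such preparations.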

How the data were processed

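Per the labels' protocols, total RNA of purified vesicles went into NEBNext small RNA libraries. The deposited raw read counts fill 919 rows, with 1 row for each mature miRNA and hairpin. The submitters' processing notes name the build UMD3.1 and edgeR. Which aligner and counting tool were used is not given in the sources used here. Values in CPM by the authors equal the count over the column total to within 0.005. The deposited log2 values cover 459 rows and served as an alternative only.

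Each mature miRNA was represented by its hairpin row with the most counts (73 had several rows), and CPM were taken over these totals. The members and lists were chosen with earlier results of these data known. Every member was named, with the 3 miRNAs nearest to the most abundant member, and from the fat cell list the 4 most abundant and all that passed. Tests used edgeR 4.0.16 (TMM, quasi-likelihood, R 4.3.3) and, as an alternative, DESeq2 1.42.0. Standard errors are the log2 fold change over the root of F. The edgeR step was run on counts simulated with the dispersion estimated from these libraries, which does not test how preparations vary. The labels call the technical pair technical replicates, so its spread is taken as technical, and nothing says that these libraries came from separate animals. Gene neighbours came from RefSeq.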

Additional observations from a re-analysis of the deposited data

How the results depend on the processing

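Directions of the 4 tested miRNAs were the same in every alternative run (10 each for miR-193a-5p and miR-365-3p, 9 each for miR-193a-3p and miR-193b, which are below 100 CPM). Of the 4 calls, 2 were left in DESeq2 and 1 in the fit restricted to miRNAs of at least 100 CPM, which held 2 of the 4. Over all miRNAs, the 65 higher calls became 24 with library totals and 26 with at least 100 CPM, and the 74 lower calls became 42 in DESeq2 and 44 with at least 100 CPM. The summed level of 380 CPM became 429 with hairpin rows summed and 288 over the total of all rows. The miR-365 arm ratio of 7.59 became 8.59 with rows summed, since the 3p counts are then added for both hairpins, and mir-365-2 alone gave none, as it lists no 5p arm. Leaving out 1 library at a time gave arm ratios of -4.52 to -3.85 for miR-193a and 7.31 to 7.64 for miR-365, and summed levels of 368 to 414 CPM. The share of miRNAs with the 3p arm higher, 45.2%, ranged from 42.9% to 47.1%. Without a technical library the fold changes have no test, because the remaining 2 libraries leave no residual degrees of freedom. They were then taken as differences of TMM-scaled log2(CPM + 1), which makes the differences of scarce miRNAs smaller than in the edgeR fit. These were 0.41 and 0.45 for miR-193a-5p, -0.76 and -0.77 for miR-193a-3p, -1.16 and -1.01 for miR-193b and -0.38 and -0.20 for miR-365-3p. No paired analysis was possible because the labels give no pairing of technical and biological libraries. Depth limits miR-365-5p and the miRNA of mir-193a-2, with at most 8 and 1 counts.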
